A study of Mus musculus with 8 samples.

Results

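The 10 genes described here are markers of T cells and of other leukocytes that can enter the brain: Cd3e, Cd3d, Cd3g, Cd8a, Cd8b1, Cd4, Ccr2, Cd52, Nkg7 and Ptprc. They were taken by name from 23393 gene symbols, with earlier results of these data known, so counts over the 10 are a description. All 10 were among the 17415 genes with enough counts to be tested. RNA was measured in the prefrontal cortex of C57BL6/J mice aged 6 to 8 weeks. Each had been given AAV9, an adeno-associated viral vector that enters neurons and glia. The groups were shAdnp (hairpin virus, titles naming Adnp), the GFP controls of the Adnp set, shPogz (hairpin virus, titles naming Pogz) and the GFP controls of the Pogz set, with 2 libraries in each. Adnp and Pogz encode chromatin-bound proteins, and the series title places them among risk factors of neurodevelopmental disorders. All 8 libraries came from injected, otherwise unmodified animals, so no uninjected cortex enters any comparison. The sources used here do not give the promoter of the hairpin, the titre or the injection site, and the treatment label of both hairpin groups names ASH1L in place of Adnp or Pogz.

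T cells recognise antigen through a receptor whose signal is carried into the cell by the CD3 chains, and the co-receptors CD8 and CD4 tie that receptor to class I or class II histocompatibility molecules. Healthy cortex holds few T cells, and most leukocytes of the brain are microglia, which stay within the tissue and carry CD45, the product of Ptprc. Monocytes and T cells come from the blood, where CCR2 guides inflammatory monocytes towards the chemokine CCL2.

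Each library held between 27501722 and 69002749 counts in named genes, and levels are given as CPM, counts scaled by TMM to a common library size. Same-group libraries differed by more than counting noise, with a chi-square per degree of freedom of 30.5 to 293, and were not closer to each other than to other groups in every case (15.8 between shPogz replicate 1 and GFP replicate 2 of the Pogz set). The first shAdnp library stood apart, with 7.62% of its counts in the ribosomal transcript Rn45s, against 0.134% to 0.740% in the others. Cortical neuron markers were high in each library, with Snap25 between 2433 and 3491 CPM. The targeted genes gave only a weak check of the labels. Adnp had 87.2 and 118 CPM in shAdnp, against 137 and 111 CPM in its GFP controls, which is -0.27 on the log2 scale (SE 0.19; edgeR adjusted p = 0.768). Pogz had 49.0 and 37.3 CPM in shPogz, against 54.4 and 53.1 CPM in its GFP controls, which is -0.32 on the log2 scale (SE 0.16; edgeR adjusted p = 0.667). Ash1l differed by -0.10 (SE 0.14) on the log2 scale in shAdnp and by 0.11 (SE 0.14) in shPogz. "shAdnp" and "shPogz" below therefore mean the libraries with those titles.

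The fitted levels of the leukocyte genes were higher in both hairpin groups than in their own GFP controls, but the spread between libraries was wide and none passed the test. All 10 had a fitted log2 fold change above 0 in shAdnp, where 47.7% of all tested genes did, and all 10 did in shPogz, where 46.4% of all tested genes did. The median of the 10 was 2.21 on the log2 scale in shAdnp (range 0.85 to 2.84) and 1.08 in shPogz (range 0.27 to 2.46), while the medians over all tested genes were -0.012 and -0.022. With edgeR's quasi-likelihood test, 0 of the 10 and 0% of the 17415 genes had an adjusted p under 0.05 in either comparison. At an unadjusted p under 0.05, 3 of the 10 were higher in shAdnp (Cd3e, Cd8b1 and Cd52), beside 6.67% of all genes, and 0 of the 10 were higher in shPogz, beside 4.05% of all genes. None of the 10 was lower at that p, beside 1.69% of all genes in shAdnp and 2.65% in shPogz. A log2 fold change above 1 was fitted for 9 of the 10 in shAdnp, beside 6.25% of all genes, and for 6 of the 10 in shPogz, beside 4.56% of all genes. DESeq2 likewise called 0 of the 10 higher in shAdnp and in shPogz, beside 2.39% and 0.574% of all genes. In bulk tissue, more cells of a type and more RNA per cell cannot be told apart.

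**Figure D1:**
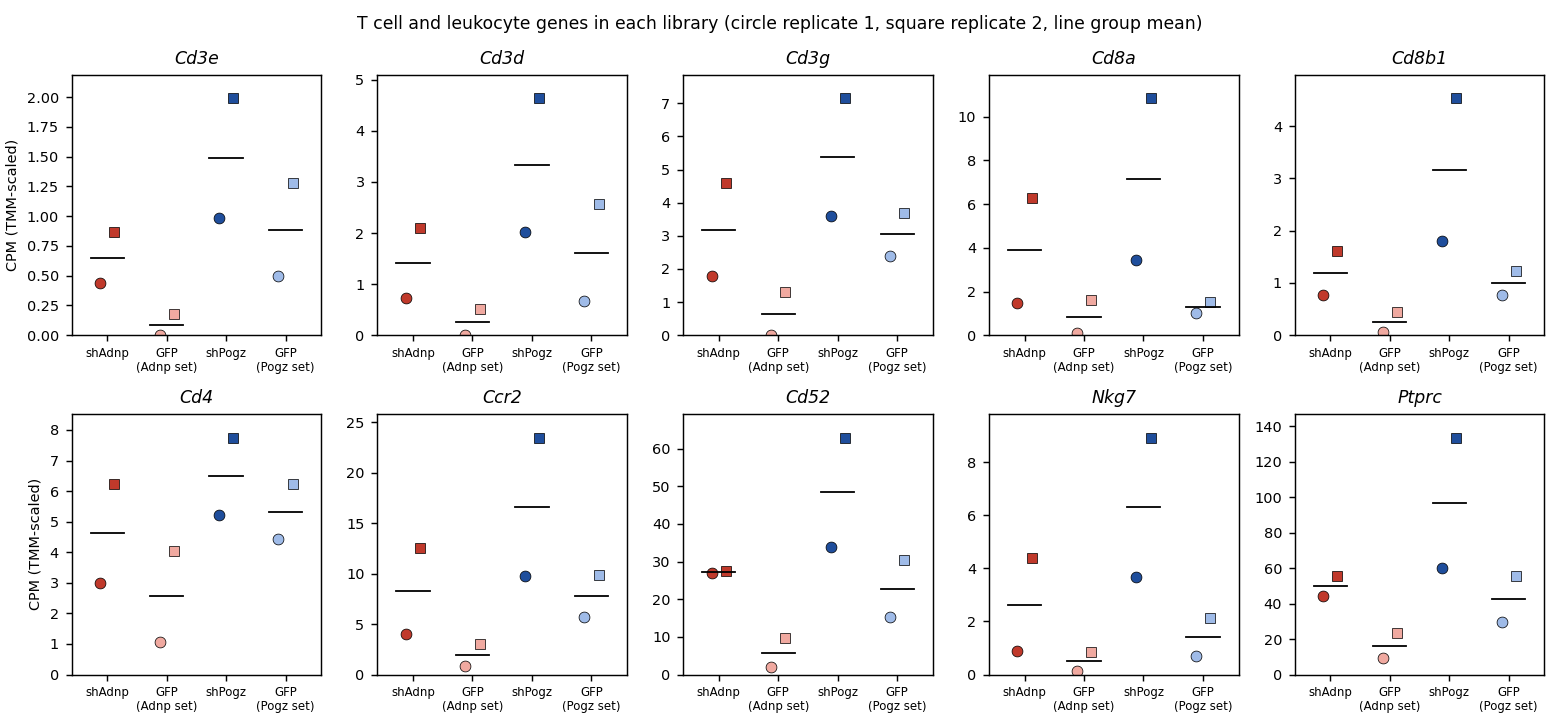
CPM of each of the 10 genes in the 8 libraries (vertical axis, starting at 0), by group (horizontal axis), with circles for replicate 1, squares for replicate 2 and a line at the group mean. In each of the 10 panels the lowest point is replicate 1 of the GFP controls of the Adnp set and the highest is replicate 2 of shPogz.

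The CD3 chains, made chiefly by T cells, were at low levels in each library. Cd3e, Cd3d and Cd3g lie next to each other on chromosome 9 of GRCm38 (mm10): Cd3g at chr9:44969572-44980431 on the minus strand, Cd3d at chr9:44981786-44987339 on the plus strand and Cd3e at chr9:44998740-45009627 on the minus strand. Cd3g and Cd3d are read away from each other from start sites 1355 bp apart, and the start of Cd3e lies 27841 bp from that of Cd3d. Since the 3 genes share a locus and varied alike across the libraries, the 250 bases before each start are shown, 5′ to 3′ along the gene's own strand, from RefSeq's annotation of GRCm38.p6. Capitals mark matches to short motifs searched on both strands: AGGAAG (bound by ETS factors), TGTGGT (RUNX), TTCNNNGAA (GAS, bound by STAT factors), the ISRE (bound by interferon regulatory factors) and TATAAA (the core box near many start sites).
Cd3e, chr9:45009612-45009861, minus strand: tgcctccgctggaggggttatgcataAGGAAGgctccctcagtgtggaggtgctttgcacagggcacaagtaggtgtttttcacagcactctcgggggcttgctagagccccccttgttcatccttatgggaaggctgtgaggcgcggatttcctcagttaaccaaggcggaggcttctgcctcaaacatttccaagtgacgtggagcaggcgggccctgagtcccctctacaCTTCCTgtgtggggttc
Cd3d, chr9:44981536-44981785, plus strand: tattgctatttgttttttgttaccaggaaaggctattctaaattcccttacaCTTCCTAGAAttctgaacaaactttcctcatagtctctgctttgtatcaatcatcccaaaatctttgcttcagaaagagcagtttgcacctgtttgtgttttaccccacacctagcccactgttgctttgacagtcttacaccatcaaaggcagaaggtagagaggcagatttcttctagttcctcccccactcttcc
Cd3g, chr9:44980432-44980681, minus strand: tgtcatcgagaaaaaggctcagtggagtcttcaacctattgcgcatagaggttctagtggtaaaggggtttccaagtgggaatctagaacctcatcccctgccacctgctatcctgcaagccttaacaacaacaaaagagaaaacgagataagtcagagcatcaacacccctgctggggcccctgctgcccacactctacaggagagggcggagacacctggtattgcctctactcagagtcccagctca
The Cd3e window held 2 ETS matches, 1 at bases 224 to 219 and 1 at bases 17 to 12 before the start. The Cd3d window held 1 ETS match at bases 198 to 193, which overlaps a GAS match (TTCCTAGAA) at bases 197 to 189. No match to the 5 motifs was found in the Cd3g window, which says only that these letters are not there. GC content was 57.2%, 41.2% and 51.6% in the Cd3e, Cd3d and Cd3g windows. An ETS match is common: 29.5% of 32841 promoter windows of the same length held one, whereas 7.02% held a GAS match, 14% a RUNX match, 2.98% an ISRE match and 12.4% a core box match. RefSeq windows were at hand for 7 of the 10 genes. The window ends at the RefSeq start. The Cd3e gene of the GENCODE annotation begins a few bases further upstream, at 45009627, which is inside the window. The ETS match at bases 17 to 12 before the RefSeq start spans that GENCODE start.

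Cd3e, the epsilon chain that pairs with both other chains, had 0.435 and 0.864 CPM in shAdnp, against 0 and 0.175 CPM in its GFP controls. In the other set it had 0.983 and 1.99 CPM in shPogz, against 0.495 and 1.28 CPM in its GFP controls. The groups did not overlap in the Adnp set and overlapped in the Pogz set. The fitted log2 fold change was 2.84 in shAdnp (SE 1.04; edgeR adjusted p = 0.481) and 0.69 in shPogz (SE 0.85; edgeR adjusted p = 0.821). Annotated exons of Cd3e share 135 bp with an antisense gene, and the sources used here do not say whether counting used the strand.

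Cd3d, the delta chain, had 0.730 and 2.11 CPM in shAdnp, against 0 and 0.509 CPM in its GFP controls. Its level was 2.01 and 4.64 CPM in shPogz, against 0.672 and 2.56 CPM in its GFP controls. The shAdnp libraries lay above their controls, and the shPogz libraries were split around the higher of theirs. These levels gave log2 fold changes of 2.46 in shAdnp (SE 1.38; edgeR adjusted p = 0.728) and 0.99 in shPogz (SE 1.21; edgeR adjusted p = 0.826). Cd3g, the gamma chain, had 1.79 and 4.59 CPM in shAdnp, against 0 and 1.31 CPM in its GFP controls, which is 2.28 on the log2 scale (SE 1.40; edgeR adjusted p = 0.754). In shPogz it had 3.6 and 7.15 CPM, against 2.40 and 3.68 CPM in its GFP controls, which is 0.80 on the log2 scale (SE 1.30; edgeR adjusted p = 0.869). The second control lay just above the first shPogz library.

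Replicate 1 of the GFP controls of the Adnp set had 0 counts for all 3 chains, at a depth of 62999525 counts, while its partner had 125. A count of 0 allows up to 3 counts, or 0.0491 CPM in that library. Summed over the 3 chains, the level was 2.96 and 7.56 CPM in shAdnp, against 0 and 1.99 CPM in its GFP controls. In the Pogz set the sum was 6.60 and 13.8 CPM in shPogz, against 3.57 and 7.52 CPM in its GFP controls. The higher GFP library of the Pogz set thus lay about level with the higher shAdnp library. Fitted folds of the CD3 chains in shAdnp lean on the library at 0: without it they were 1.89 for Cd3e, 1.49 for Cd3d and 1.30 for Cd3g on the log2 scale. Without its partner, the remaining control was at 0, and the folds had no value but a lower bound, from a log2 of at least 3.73 for Cd3e to at least 6.02 for Cd3g (against 3 counts per library).

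The CD8 chains had higher mean levels in both hairpin groups than in their GFP controls, and neither chain passed the test in either set. Cd8a (chr6:71373427-71379173, plus strand) and Cd8b1 (chr6:71322788-71337494, plus strand) encode the alpha and beta chains of the co-receptor of cytotoxic T cells, and their starts are 50639 bp apart. Cd8a had 1.46 and 6.30 CPM in shAdnp, against 0.0818 and 1.59 CPM in its GFP controls, so that the first hairpin library lay just under the second control. In shPogz it had 3.46 and 10.8 CPM, against 1.03 and 1.52 CPM in its GFP controls, with both hairpin libraries above both controls. The log2 fold change was 2.20 in shAdnp (SE 1.36; edgeR adjusted p = 0.754) and 2.46 in shPogz (SE 1.36; edgeR adjusted p = 0.678), the highest of the 10 genes in shPogz.

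Cd8b1, a chain made largely by conventional CD8 T cells, had 0.765 and 1.60 CPM in shAdnp, against 0.0654 and 0.446 CPM in its GFP controls. Its level in shPogz was 1.80 and 4.53 CPM, against 0.778 and 1.22 CPM in its GFP controls. The hairpin libraries lay above their own controls in both sets. The log2 fold change was 2.19 in shAdnp (SE 0.81; edgeR adjusted p = 0.495) and 1.63 in shPogz (SE 0.74; edgeR adjusted p = 0.667).

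Cd4 (chr6:124864692-124888221, minus strand), the co-receptor of helper T cells that some myeloid cells also make, differed least of the 10 genes in both sets. It had 3.01 and 6.23 CPM in shAdnp, against 1.08 and 4.04 CPM in its GFP controls. In the other set it had 5.22 and 7.75 CPM in shPogz, against 4.42 and 6.23 CPM in its GFP controls. The libraries of hairpin and control groups interleaved in both sets. Its log2 fold change was 0.85 in shAdnp (SE 0.63; edgeR adjusted p = 0.797) and 0.27 in shPogz (SE 0.62; edgeR adjusted p = 0.909), with a range of 2 SE either side of -0.42 to 2.11 and -0.97 to 1.52.

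Within a library, the balance of Cd8a and Cd4 counts does not depend on scaling. Cd8a made up 32.7% (exact 95% binomial interval 27.0% to 38.8%) and 50.3% (46.5% to 54.1%) of the summed Cd8a and Cd4 counts in shAdnp. Its share was 7.04% (2.33% to 15.7%) and 28.2% (23.6% to 33.2%) in the GFP controls of that set. In shPogz the share was 39.9% (34.9% to 45.1%) and 58.3% (54.6% to 62.0%), against 18.8% (13% to 25.9%) and 19.6% (16.4% to 23.2%) in its GFP controls. All 4 hairpin libraries lay above all 4 GFP libraries, although the intervals of shAdnp replicate 1 and GFP replicate 2 of that set overlap. The share was chosen after the values were seen, has no test, and its intervals cover counting error only. Replicate 1 of the GFP controls of the Adnp set had 66 Cd4 and 5 Cd8a counts beside 0 CD3 counts. Since some myeloid cells also make Cd4, the share cannot be read as a ratio of T cell types.

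**Figure D2:**
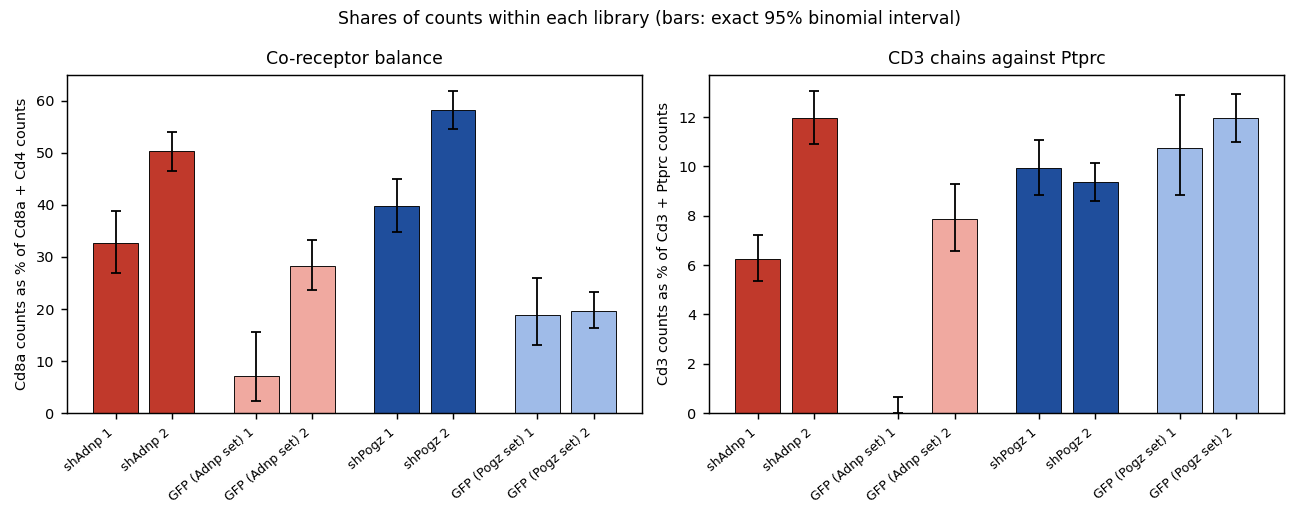
Left, Cd8a counts as a percentage of Cd8a plus Cd4 counts; right, counts of the 3 CD3 chains as a percentage of CD3 plus Ptprc counts, 1 bar per library with exact 95% binomial intervals. On the left the hairpin libraries stand at 32.7% to 58.3% and the GFP libraries at 7.04% to 28.2%; on the right the bar of GFP replicate 1 of the Adnp set is at 0.

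Ccr2 is a mark of incoming monocytes and Nkg7 of cytotoxic cells, and both were higher in the hairpin groups on average. Ccr2 (chr9:124101950-124113557, plus strand), the chemokine receptor of inflammatory monocytes and of some T cells, had 4.07 and 12.6 CPM in shAdnp, against 0.834 and 3.02 CPM in its GFP controls. It had 9.76 and 23.5 CPM in shPogz, against 5.66 and 9.88 CPM in its GFP controls. The groups were apart in the Adnp set and touched in the Pogz set, where the second control was above the first hairpin library. The log2 fold change was 2.10 in shAdnp (SE 0.92; edgeR adjusted p = 0.650) and 1.08 in shPogz (SE 0.87; edgeR adjusted p = 0.740).

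Nkg7 (chr7:43437073-43438249, plus strand) encodes a granule protein of natural killer cells and cytotoxic T cells. It had 0.869 and 4.41 CPM in shAdnp, against 0.131 and 0.860 CPM in its GFP controls, so that the first hairpin and the second control library were nearly equal. Its level in shPogz was 3.67 and 8.93 CPM, against 0.707 and 2.13 CPM in its GFP controls, with both hairpin libraries above both controls. The log2 fold change was 2.40 in shAdnp (SE 1.20; edgeR adjusted p = 0.698) and 2.09 in shPogz (SE 1.13; edgeR adjusted p = 0.670).

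Cd52 and Ptprc are made by leukocytes in general. Cd52 (chr4:134082448-134095082, minus strand), a small glycosylated surface peptide, had 27.0 and 27.5 CPM in shAdnp, against 1.93 and 9.76 CPM in its GFP controls. In shPogz it had 33.9 and 62.9 CPM, against 15.2 and 30.3 CPM in its GFP controls. Both hairpin groups lay wholly above their own controls, and the shAdnp libraries were close to equal. The log2 fold change was 2.22 in shAdnp (SE 0.84; edgeR adjusted p = 0.591) and 1.08 in shPogz (SE 0.80; edgeR adjusted p = 0.722). Its exons share 172 bp with Crybg2 on the other strand, which is listed under its older symbol Aim1l at 1.04 to 2.09 CPM.

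Ptprc (chr1:138062861-138175708, minus strand), the receptor tyrosine phosphatase CD45, had 44.5 and 55.7 CPM in shAdnp, against 9.29 and 23.3 CPM in its GFP controls. In the Pogz set it had 59.9 and 134 CPM in shPogz, against 29.7 and 55.4 CPM in its GFP controls. The hairpin libraries lay above their own controls in both sets, yet the higher GFP library of the Pogz set was about level with the shAdnp libraries. The log2 fold change was 1.62 in shAdnp (SE 0.65; edgeR adjusted p = 0.613) and 1.18 in shPogz (SE 0.64; edgeR adjusted p = 0.676).

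Read against each other per kilobase of exon, the mean level over the 8 libraries was 22 CPM per kb for Cd52, 2.97 for Nkg7, 2.81 for Ptprc, 1.28 for Ccr2 and 1.18 for Cd4. Below these came Cd8b1 at 0.945 CPM per kb, Cd3g at 0.938, Cd3d at 0.911, Cd8a at 0.903 and Cd3e at 0.191. Cd52 had the highest and Cd3e the lowest level per kb in each of the 4 group means. Between neighbours in this order, Cd52 was above Nkg7, Ptprc above Ccr2 and Cd8a above Cd3e in all 8 libraries. The means of the other neighbours differed by less than the SD of either gene over the 8 libraries.

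**Figure D3:**
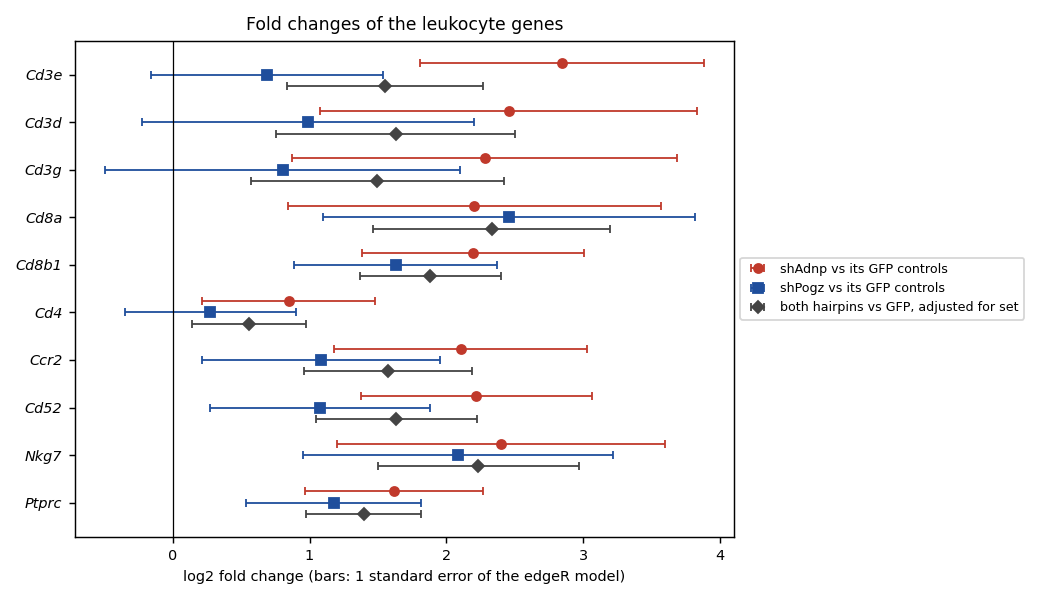
Log2 fold change of each gene (horizontal axis) with bars of 1 standard error from the edgeR model, for shAdnp and shPogz, each against its own GFP libraries, and for both hairpins against GFP adjusted for set. Every point lies to the right of 0, and Cd4 has the smallest value in each of the 3 comparisons.

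With the set as a term and 4 hairpin against 4 GFP libraries, the average difference had a median of 1.60 over the 10 genes on the log2 scale (range 0.56 to 2.33), against -0.023 over all tested genes. All 10 averages were above 0, as were 44.7% of all genes, and 9 of the 10 were above 1, as were 4.61% of all genes. The order of these averages was not tested. It differed in shAdnp alone, where Cd3e (2.84), Cd3d (2.46), Cd3g (2.28) and Cd52 (2.22) were above Cd8a (2.20) and Cd8b1 (2.19). The highest averages were 2.33 for Cd8a (SE 0.87; edgeR adjusted p = 0.364), 2.23 for Nkg7 (SE 0.74; edgeR adjusted p = 0.304) and 1.88 for Cd8b1 (SE 0.52; edgeR adjusted p = 0.201). Cd52 and Cd3d followed at 1.63 each (SE 0.59 and 0.87), then Ccr2 at 1.57 (SE 0.61), Cd3e at 1.55 (SE 0.72), Cd3g at 1.5 (SE 0.92), Ptprc at 1.40 (SE 0.42; edgeR adjusted p = 0.285) and Cd4 at 0.56 (SE 0.42). With edgeR, 0 of the 10 and 0% of all genes passed the adjusted threshold. At an unadjusted p under 0.05, 6 of the 10 were higher (Cd8a, Cd8b1, Ccr2, Cd52, Nkg7 and Ptprc), beside 8.84% of all genes, and 0 were lower, beside 3.62% of all genes. DESeq2 called 4% of all genes higher, and among the 10 it called Cd8b1 (log2 fold change 1.93, DESeq2 adjusted p = 0.00505) and Ptprc (log2 fold change 1.42, DESeq2 adjusted p = 0.0369). Over 23 alternatives, adjusted p-values ran from 0.000442 to 0.640 for Cd8b1 and from 0.00375 to 0.734 for Ptprc. With DESeq2, none of the 10 was called without replicate 2 of shAdnp or without replicate 2 of shPogz.

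The libraries of hairpin and GFP groups did not overlap, with the hairpin group higher, for 8 of the 10 genes in the Adnp set (Cd8a and Cd4 being the exceptions), beside 20.4% of all genes. In the Pogz set this held for 5 of the 10 (Cd8a, Cd8b1, Cd52, Nkg7 and Ptprc), beside 19% of all genes. Cd8b1, Cd52, Nkg7 and Ptprc did so in both sets, which is 4 of the 10 beside 7.12% of all genes. For 0 of the 10 did all 4 hairpin libraries exceed all 4 GFP libraries, beside 4.01% of all genes. The GFP controls of the sets also differed from each other. Those of the Pogz set lay wholly above those of the Adnp set for 8 of the 10 genes, all but Cd8a and Nkg7, beside 21.2% of all genes. Ptprc averaged 42.6 ± 18.2 CPM in the GFP controls of the Pogz set and 16.3 ± 9.92 CPM in those of the Adnp set (SD, n = 2 each). Cd52 averaged 22.8 ± 10.7 CPM in the GFP controls of the Pogz set and 5.84 ± 5.54 CPM in those of the Adnp set (SD, n = 2 each).

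With all 8 libraries, none of the 10 showed a difference between the hairpin responses that passed the test with edgeR or DESeq2. The shPogz response minus the shAdnp response ran from -2.15 for Cd3e (SE 1.33) to 0.25 for Cd8a (SE 1.88) on the log2 scale, with edgeR adjusted p-values of 0.978 to 0.994. A range of 2 SE either side ran from -4.82 to 0.51 for Cd3e and from -3.51 to 4.01 for Cd8a, so the range for Cd3e reaches several fold on the lower side and that for Cd8a on both. The difference was above 0 for Cd8a alone among the 10, beside 46.9% of all genes, and above 1 for 0 of the 10, beside 2.68% of all genes. Across all genes, edgeR called 0% at the adjusted threshold for this difference. An unadjusted p under 0.05 was reached by 1.1% of all genes upward and 2.41% downward, and by 0 of the 10. With DESeq2 and without replicate 2 of the GFP controls of the Adnp set, 19 of 17751 genes were called for this difference, and 2 of the 10 were among them. These were Cd52 at -2.72 (DESeq2 adjusted p = 0.00523, with a range over 23 alternatives of 0.00523 to 1) and Cd3g at -5.19 or below, since the remaining control had 0 counts (DESeq2 adjusted p = 0.0343, with a range over 22 alternatives of 0.0343 to 1).

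The extremes of all 10 genes came from the same libraries. Replicate 1 of the GFP controls of the Adnp set was the lowest of the 8 libraries for all 10 genes, beside 17.8% of all genes, and replicate 2 of shPogz was the highest for all 10, beside 22.7% of all genes. Median ranks over the 10 genes, counted from 1 for the lowest library, were 3 and 6.5 in shAdnp, against 1 and 2 in its GFP controls, and 6 and 8 in shPogz, against 3.5 and 6 in its GFP controls. Without replicate 1 of the GFP controls of the Adnp set, the shAdnp folds were 1.12 for Ptprc, 1.5 for Cd52, 1.47 for Ccr2, 1.30 for Cd8a and 0.21 for Cd4 on the log2 scale. Without replicate 2 of these controls, which leaves the lowest library as the only control, the shAdnp folds were 2.43 for Ptprc, 3.82 for Cd52, 3.31 for Ccr2, 5.52 for Cd8a, 4.12 for Cd8b1, 4.31 for Nkg7 and 2.09 for Cd4. Leaving out replicate 1 of shAdnp, the library with the most Rn45s, raised the values, to 1.79 for Ptprc, 2.25 for Cd52, 2.72 for Ccr2, 2.92 for Cd8a and 1.30 for Cd4. Without replicate 2 of shAdnp, Cd8a and Nkg7 each had 0.82 in shAdnp, Ccr2 1.09 and Cd4 0.25. Leaving out replicate 2 of shPogz left 0.49 for Ptprc, 0.56 for Cd52, 0.31 for Ccr2, 1.42 for Cd8a, 0.82 for Cd8b1 and 1.32 for Nkg7 in shPogz, and -0.038 for Cd4. The CD3 chains then stood at 0.10 for Cd3e, 0.27 for Cd3d and 0.23 for Cd3g in shPogz. Without replicate 2 of the GFP controls of the Pogz set, the shPogz folds were 1.62 for Cd3e, 2.34 for Cd3d, 1.20 for Cd3g, 1.60 for Ccr2, 1.71 for Cd52, 3.19 for Nkg7 and 0.59 for Cd4. Without replicate 1 of those controls, they were 0.24 for Cd3e, 0.40 for Cd3d and 0.080 for Cd4. Apart from the -0.038 for Cd4 in shPogz without replicate 2 of shPogz, every fold of the 10 genes in shAdnp and shPogz stayed above 0. This held whichever of the 8 libraries was left out. For the average over both sets, the values with a library left out ran from 0.26 to 0.91 for Cd4 and from 1.56 to 2.24 for Cd8b1, and in 1 such fit a gene of the 10 passed the edgeR threshold (Cd8b1 without shPogz replicate 1), a fit that called 556 of 17864 genes.

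**Figure D4:**
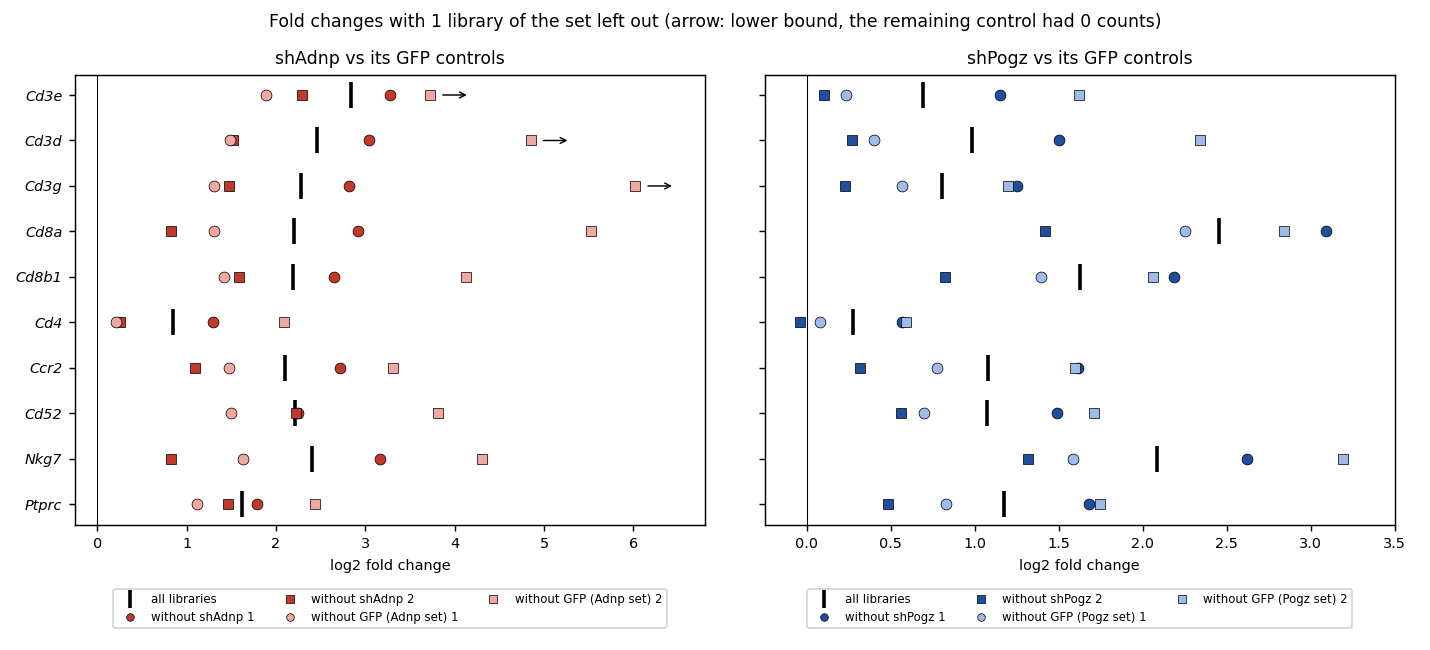
Log2 fold change of each gene (horizontal axis) in shAdnp (left) and shPogz (right) with all 8 libraries (black tick) and with 1 library of that set left out (markers; an arrow marks a lower bound). The lowest values on the right come without replicate 2 of shPogz, where Cd4 stands at -0.038, and the arrows on the left belong to the CD3 chains once the only control with counts is gone.

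The CD3 chains were also set against Ptprc within each library. Counts of the CD3 chains made up 6.23% (exact 95% binomial interval 5.35% to 7.20%) and 12% (10.9% to 13.1%) of the summed CD3 and Ptprc counts in shAdnp. The share was 0% (up to 0.647%) and 7.86% (6.59% to 9.30%) in the GFP controls of that set. It was 9.92% (8.85% to 11.1%) and 9.35% (8.60% to 10.1%) in shPogz, against 10.7% (8.83% to 12.9%) and 11.9% (11% to 12.9%) in its GFP controls. In the Pogz set, therefore, CD3 counts were no larger a share in the hairpin libraries than in the controls, whereas Cd8a was a larger share of Cd8a plus Cd4.

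Ptprc and Cd52 are also made by microglia, whose markers were higher too. The summed level of 16 microglial genes was 1478 and 1104 CPM in shAdnp, against 655 and 771 CPM in its GFP controls, and 1017 and 1446 CPM in shPogz, against 905 and 970 CPM in its GFP controls. None of the 16 was at 0 in any library. Tmem119, a marker of resident microglia, had 39.3 and 42.5 CPM in shAdnp, against 21.7 and 29.6 CPM in its GFP controls, and 42.9 and 58.5 CPM in shPogz, against 41.9 and 39.5 CPM in its GFP controls. As a share of the microglial sum, Ptprc was 3.01% and 5.04% in shAdnp, against 1.42% and 3.03% in its GFP controls, and 5.89% and 9.24% in shPogz, against 3.28% and 5.71% in its GFP controls. Cd52 was 1.82% and 2.49% of that sum in shAdnp, against 0.295% and 1.27% in its GFP controls, and 3.33% and 4.35% in shPogz, against 1.68% and 3.13% in its GFP controls. Relative to these microglial genes, Ptprc thus stood apart from both controls in the second library of each hairpin group. The first shPogz library was close to its second control (5.89% against 5.71%). The first shAdnp library was level with its second control. The part of microglia in the levels of Ptprc and Cd52 was not tested.

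Red blood cell RNA was read as a mark of blood left in the tissue. Beta-s, an adult beta globin listed under this older symbol (Hbb-bs in RefSeq), had 67.0 and 52.6 CPM in shAdnp, against 53.8 and 49.7 CPM in its GFP controls, and 51.0 and 47.0 CPM in shPogz, against 67.0 and 45.1 CPM in its GFP controls. The summed red blood cell list had 74.5 and 61.4 CPM in shAdnp, against 60.6 and 56.5 CPM in its GFP controls, and 58.7 and 53.3 CPM in shPogz, against 75.6 and 52.6 CPM in its GFP controls. Of 7 such genes matched to the files, 4 had enough counts to be tested, and 3 or 4 were at 0 in each library, Hba-a1 among them in all 8. The part of residual blood in the levels of the 10 genes was not tested.

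Other genes of the same pathways and cells, from lists that leave out the 10, are given by counts and medians. None of their genes passed the edgeR threshold in any comparison. Their counts stand beside those over all tested genes, of which 47.7% in shAdnp and 46.4% in shPogz had a log2 fold change above 0, and 6.67% and 4.05% reached an unadjusted p under 0.05 upward. Of 24 T cell receptor signalling genes, 21 had a log2 fold change above 0 in shAdnp and 21 in shPogz, with medians of 1.25 and 0.76, and 5 and 1 reached an unadjusted p under 0.05 upward. The share of 1 in 24 in shPogz is about that over all genes. Lcp2, the adaptor SLP-76, had 14.3 and 15.0 CPM in shAdnp, against 3.65 and 6.86 CPM in its GFP controls, and 14.8 and 29.6 CPM in shPogz, against 7.78 and 11.1 CPM in its GFP controls. In the control at 3.65 CPM, Lcp2 was thus present where the CD3 chains had 0 counts. Its log2 fold change was 1.48 in shAdnp (SE 0.41; edgeR adjusted p = 0.369) and 1.22 in shPogz (SE 0.41; edgeR adjusted p = 0.667). Thy1 and Bcl11b, which cortical neurons also make, showed no such difference, with -0.13 (SE 0.12) and -0.19 (SE 0.13) in shAdnp and -0.17 (SE 0.12) and -0.066 (SE 0.13) in shPogz.

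The 20 genes of the cytotoxic and natural killer list were above 0 in 20 cases in shAdnp and 19 in shPogz, with a median of 1.72 in each, and 7 and 5 reached an unadjusted p under 0.05 upward. Cst7, an inhibitor of lysosomal proteases that activated microglia also make, had 31.1 and 18.0 CPM in shAdnp, against 0.621 and 4.08 CPM in its GFP controls. In shPogz it had 17.0 and 50.4 CPM, against 5.91 and 7.01 CPM in its GFP controls. Its log2 fold change was 3.38 in shAdnp (SE 1.02; edgeR adjusted p = 0.464) and 2.38 in shPogz (SE 0.96; edgeR adjusted p = 0.667). Ccl5, a chemokine of cytotoxic lymphocytes, differed by 1.94 (SE 1.21) in shAdnp and by 1.70 (SE 1.17) in shPogz, and Ctsw, a protease of the same cells, by 1.46 (SE 0.73) and 1.11 (SE 0.71) on the log2 scale. Gzma, a granule protease, had 0.626 and 0.864 CPM in shAdnp, against 0.0981 and 0.414 CPM in its GFP controls, and 1.08 and 4.35 CPM in shPogz, against 0.778 and 0.824 CPM in its GFP controls. Prf1, the pore-forming perforin, had 0.556 and 1.15 CPM in shAdnp, against 0.0981 and 0.318 CPM in its GFP controls, and 1.52 and 2.59 CPM in shPogz, against 0.495 and 1.11 CPM in its GFP controls.

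Monocyte and neutrophil genes had medians of 1.35 in shAdnp and 1.32 in shPogz, with 18 and 20 of 21 above 0, and 6 and 5 at an unadjusted p under 0.05 upward and 1 downward in shAdnp. Ly6c2, a marker of inflammatory monocytes, had 3.25 and 6.28 CPM in shAdnp, against 0.638 and 3.26 CPM in its GFP controls, and 19.2 and 46.4 CPM in shPogz, against 10.04 and 20.0 CPM in its GFP controls. In both sets the first hairpin library fell below the second control for this gene. Plac8, found in monocytes and other leukocytes, had 1.53 and 4.34 CPM in shAdnp, against 0.164 and 2.23 CPM in its GFP controls, and 9.90 and 27.7 CPM in shPogz, against 2.62 and 6.77 CPM in its GFP controls. Of the neutrophil genes, S100a8 had 0.209 and 0.108 CPM in shAdnp, against 0.0981 and 0.287 CPM in its GFP controls. In shPogz it had 0.281 and 0.157 CPM, against 0.495 and 0.199 CPM in its GFP controls. S100a9 had 0.104 and 0.162 CPM in shAdnp, against 0.262 and 0.478 CPM in its GFP controls. In shPogz S100a9 had 0.561 and 0.367 CPM, against 0.354 and 0.313 CPM in its GFP controls. S100a8 thus interleaved with its controls in both sets, whereas S100a9 was lower in shAdnp and higher in shPogz. Lyz2, the lysozyme of macrophages and other myeloid cells, had the highest level of the list, with a log2 fold change of 2.11 in shAdnp (SE 0.60; edgeR adjusted p = 0.428) and 0.89 in shPogz (SE 0.58; edgeR adjusted p = 0.699). Vcan and Itga4 differed by 0.34 (SE 0.14) and 0.42 (SE 0.20) in shAdnp, and by 0.032 (SE 0.14) and 0.0038 (SE 0.20) in shPogz.

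B cell genes had medians that differed in sign between the sets, and the difference passed the edgeR threshold for none of them. Their median was 0.72 in shAdnp, with 9 of 12 above 0, and -0.38 in shPogz, with 4 of 12 above 0, and 2 and 0 reached an unadjusted p under 0.05 upward. Igj, the joining chain of secreted antibodies, had 91.3 and 12.6 CPM in shAdnp, against 2.83 and 30.5 CPM in its GFP controls, and 70.5 and 26.1 CPM in shPogz, against 142 and 133 CPM in its GFP controls. It was thus lower in both shPogz libraries than in their controls, whereas the shAdnp libraries interleaved with theirs, 1 lying above both controls and 1 between them. Pou2af1, a B cell coactivator, differed by 1.46 (SE 0.90) in shAdnp and -1.25 (SE 0.81) in shPogz, and Cd22, a B cell lectin, by 2.70 (SE 0.69) and 0.95 (SE 0.64) on the log2 scale. With 1 library left out, the median of the list ran from 0.19 to 2.01 in shAdnp and from -0.75 to 0.35 in shPogz.

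Among genes made by leukocytes in general, 20 of 20 were above 0 in each set, with medians of 1.31 in shAdnp and 0.79 in shPogz, and 14 and 2 reached an unadjusted p under 0.05 upward. Laptm5, a lysosomal protein of blood cells, differed by 1.37 (SE 0.36) in shAdnp and 0.77 (SE 0.35) in shPogz, and Lcp1, an actin bundler, by 1.33 (SE 0.48) and 0.93 (SE 0.48). Coro1a, an actin regulator also present in brain, differed by 0.11 (SE 0.15) and 0.10 (SE 0.15) on the log2 scale. Microglial genes had medians of 0.80 in shAdnp and 0.31 in shPogz, with 16 and 15 of 16 above 0, and 15 and 1 at an unadjusted p under 0.05 upward. As a share, 1 of 16 in shPogz is near that over all genes. Csf1r and Sparc differed by 0.93 (SE 0.19) and 0.48 (SE 0.14) in shAdnp, and by 0.32 (SE 0.19) and 0.29 (SE 0.14) in shPogz.

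Macrophages of the brain's borders and dendritic cells were read in the same way. Border macrophage genes had medians of 0.82 in shAdnp and 0.040 in shPogz, with 11 and 6 of 12 above 0. Stab1, Mrc1 and Ms4a6d differed by 0.79 (SE 0.12), 0.62 (SE 0.18) and 1.37 (SE 0.39) in shAdnp, and by -0.089 (SE 0.12), -0.21 (SE 0.18) and 1.38 (SE 0.39) in shPogz. Dendritic genes had medians of 0.75 in shAdnp and 0.47 in shPogz, with 10 and 7 of 12 above 0. Itgax, the CD11c integrin that activated microglia also make, had 58.2 and 20.0 CPM in shAdnp, against 0.654 and 4.86 CPM in its GFP controls, and 17.1 and 38.0 CPM in shPogz, against 6.83 and 12.8 CPM in its GFP controls. Zbtb46 and Flt3 differed by -0.15 (SE 0.15) and 0.33 (SE 0.25) in shAdnp, and by -0.037 (SE 0.15) and -0.0055 (SE 0.25) in shPogz.

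Receptors and ligands that bring leukocytes into tissue were read last. Chemokine receptors other than Ccr2 had medians of 1.09 in shAdnp and 0.57 in shPogz, with 12 and 11 of 13 above 0. Cx3cr1, which microglia make at high levels, differed by 1.01 (SE 0.22) in shAdnp and 0.31 (SE 0.22) in shPogz, and Cxcr7, the older symbol of the scavenging receptor Ackr3, by 0.029 (SE 0.29) and -0.29 (SE 0.30). Recruiting chemokines and adhesion molecules had medians of 1.40 in shAdnp and 1.56 in shPogz, with 13 of 16 above 0 in each, and 3 and 5 at an unadjusted p under 0.05 upward. Vcam1, the vascular ligand of the integrin VLA-4, had 56.6 and 57.6 CPM in shAdnp, against 27.8 and 47.4 CPM in its GFP controls, and 64.5 and 136 CPM in shPogz, against 39.6 and 46.4 CPM in its GFP controls. Both hairpin groups lay above their controls, with log2 fold changes of 0.60 (SE 0.40; edgeR adjusted p = 0.772) in shAdnp and 1.22 (SE 0.41; edgeR adjusted p = 0.667) in shPogz. Cx3cl1, a neuronal ligand of Cx3cr1, and Cxcl12 differed by -0.0087 (SE 0.14) and -0.20 (SE 0.12) in shAdnp, and by -0.30 (SE 0.14) and -0.11 (SE 0.12) in shPogz. Of the cortical check genes, the median was -0.10 in each set.

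**Figure D5:**
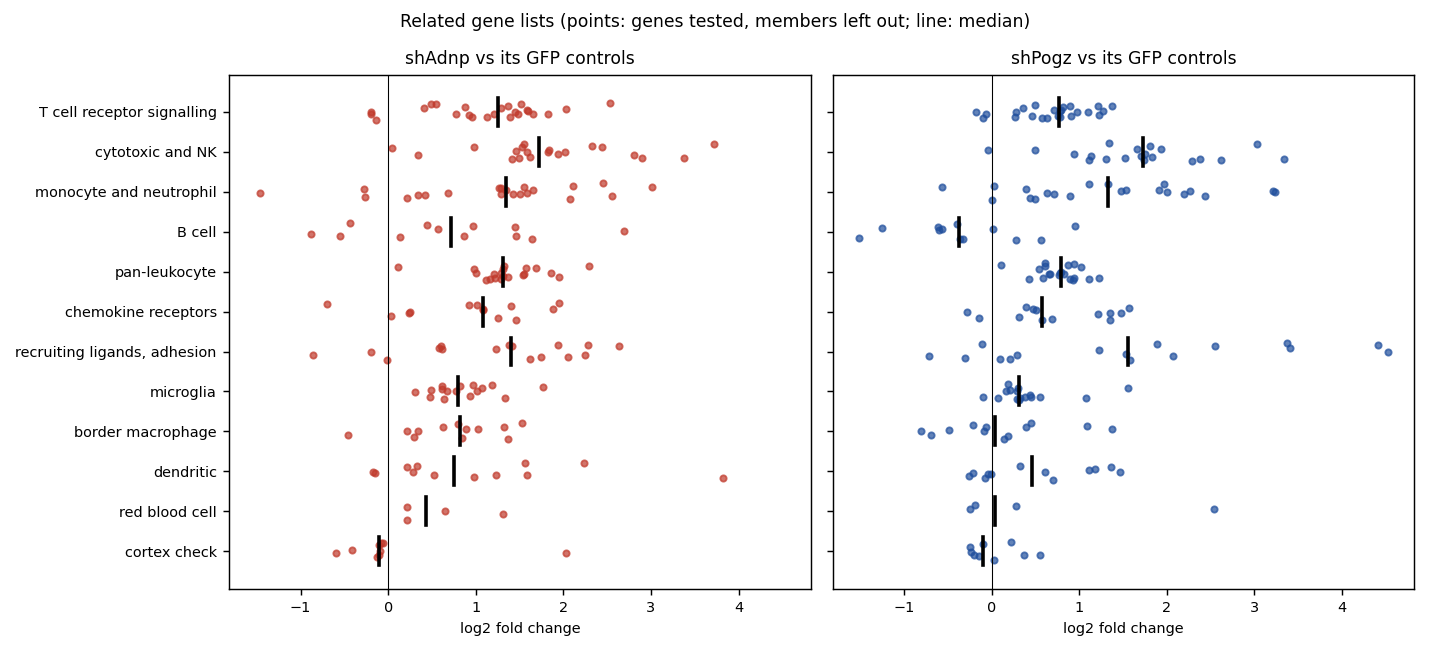
Log2 fold change (horizontal axis) of each tested gene of 12 lists, with the 10 leukocyte genes left out, in shAdnp (left) and shPogz (right), each against its GFP controls; points are genes and the black tick is the list's median. The cytotoxic list has a median of 1.72 on both sides, B cell genes stand at 0.72 on the left and -0.38 on the right, and the cortical check genes at -0.10 on both.

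The profiles of the 10 genes over the libraries were also compared. Each profile was the log2(CPM + 0.5) of the 8 libraries minus its mean, and its distance to the mean profile of the 10 was a root mean square difference over the 8 libraries. Ptprc was nearest at 0.187, then Cd3d at 0.197, Cd8b1 at 0.238, Ccr2 at 0.241 and Cd3g at 0.244. Nkg7 followed at 0.360, Cd3e at 0.386, Cd4 at 0.434, Cd8a at 0.461 and Cd52 at 0.482. Between the lowest and the highest library the profile spanned 2.32 for Cd3e, which the added 0.5 flattens most, 2.39 for Cd4 and 4.71 for Cd52.

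Outside the 10, the genes nearest to their mean profile over the 8 libraries were Myo1g at 0.129, Tap2 at 0.145, Ptpn22 at 0.158, Rgs1 at 0.167, Il18r1 at 0.170 and Uba7 at 0.201. Myo1g, a motor protein of blood cells, had 3.89 and 9.29 CPM in shAdnp, against 0.899 and 3.90 CPM in its GFP controls, and 8.35 and 18.4 CPM in shPogz, against 3.89 and 8.71 CPM in its GFP controls. Tap2, part of the peptide transporter that loads class I molecules, had 18.4 and 34.4 CPM in shAdnp, against 6.25 and 15.2 CPM in its GFP controls, and 33.1 and 74.7 CPM in shPogz, against 17.9 and 24.8 CPM in its GFP controls. Nearest to Ptprc alone were B2m at 0.120, Csf2rb at 0.122, Sp140 at 0.146, Fgr at 0.155, Il21r at 0.162 and Tspo at 0.177. B2m, the light chain of class I molecules, had 405 and 415 CPM in shAdnp, against 80.9 and 217 CPM in its GFP controls, and 456 and 995 CPM in shPogz, against 264 and 431 CPM in its GFP controls. All of these profiles share the same 8 libraries and their scaling, so their likeness is a description.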

How the data were processed

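The authors' deposited tables hold raw counts of reads for each gene symbol. STAR, featureCounts, DESeq2 and mm10 appear in the submitters' processing notes. Cutadapt, then TopHat2 on RefSeq mRNAs, appears in the labels' protocols, which describe stranded, ribosomal-depleted libraries from 1 µg of RNA. Neither gives versions, how strand was set or how reads with several matches were treated. Groups came from the titles. The design text names 3 knockdown and 2 control mice. Each group here has 2 libraries, which the labels call biological duplicates, and p-values measure only the spread between these libraries.

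In each library 25 identifiers had become date numbers (0.306% to 0.337% of counts) and 2 were blank, and these were left out. Counts were analysed with edgeR 4.0.16 in R 4.3.3: filterByExpr (minimum count 10), TMM scaling and a robust quasi-likelihood fit to all 8 libraries, with 4 residual degrees of freedom and a biological coefficient of variation of 0.171. A second model had terms for set and hairpin. P-values were adjusted by Benjamini-Hochberg over 17415 genes at 0.05. An exact permutation test was not run, since groups of 2 cannot reach that threshold. DESeq2 1.42.0 and limma-voom (limma 3.58.1) were alternatives. The code was tested on simulated data.

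Positions and exon lengths are from GENCODE vM21 (GRCm38). The 10 genes and the lists were chosen with earlier results of these data known. Named list genes are the 3 with the highest mean CPM of each list, of which some are not reported here, and markers named for each cell type. Profiles were compared by the rule given in the text, naming the 6 nearest genes. Some list genes were found under older symbols.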

Additional observations from a re-analysis of the deposited data

How the results depend on the processing

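With 2 libraries per group the p-values rest on a spread estimated for each gene over all groups, with help from the other genes. No gene was called in any of the 4 comparisons by edgeR, nor with limma-voom, RLE or upper quartile scaling, other filters on low counts or an adjusted p of 0.10. Fits to only the 4 libraries compared, made for shAdnp and shPogz alone, called none either. DESeq2 called 420 genes in shAdnp, 100 in shPogz, 711 for the average and 2 for the difference between responses. A replicate block (replicate number within set) called 175, 31, 405 and 0 of 17415 genes. Of the 10 it called 3 in shAdnp (Ccr2, Nkg7 and Ptprc) and 1 in shPogz (Nkg7). For the average it called 5 of the 10 (Ccr2, Cd8a, Cd8b1, Nkg7 and Ptprc). Same-numbered libraries are not shown to be paired: their deviations correlated at -0.0787 in the Adnp set and 0.111 in the Pogz set over genes. With each library left out, edgeR called 0 to 8 genes in shAdnp, 0 to 153 in shPogz, 0 to 556 for the average and 0 to 4 for the difference. DESeq2 with each library left out, added after seeing the data, called 7 to 591, 2 to 991, 327 to 1191 and 0 to 57, and without GFP replicate 2 of the Adnp set it called 9 of the 10 genes, all but Nkg7, among 591 genes in shAdnp, and Cd3g and Cd52 for the difference. With a library left out and either tool, Cd4 in shPogz ran from -0.038 to 0.59 and turned sign without shPogz replicate 2. For the difference between responses, Cd8a turned to -0.82 with limma-voom and -0.28 with the replicate block. With a library left out, by either tool, that difference ran from -3.07 to 1.70 for Cd8a, -2.52 to 0.24 for Cd8b1, -1.82 to 0.092 for Cd4, -2.23 to 0.032 for Ccr2, -2.22 to 1.33 for Nkg7 and -1.25 to 0.12 for Ptprc. No value of the 10 genes reversed in shAdnp or for the average in 240 and 230 values. Those of shAdnp include fits without a library of the Pogz set, which could hardly change them. With edgeR, such fits gave 2.841 to 2.845 for Cd3e. The cause of these changes was not tested.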
